A study of Mus musculus with 7 samples.

Results

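The STAT genes encode signal transducers and activators of transcription, and 6 of them were described here: Stat2, Stat3, Stat4, Stat5a, Stat5b and Stat6. They were chosen by gene symbol, and each symbol matched 1 of the 55335 Ensembl identifiers in the deposited tables. The cells are ILC2s (type 2 innate lymphoid cells), which lack antigen receptors, make type 2 cytokines and carry the interleukin 33 receptor ST2. The cells were sorted from mouse hearts by surface staining as CD45-positive, lineage-negative and ST2-positive, and cDNA was amplified over its full length before sequencing. The 3 naive libraries came from hearts that had not been transplanted, and the 4 allograft libraries from BALB/c hearts transplanted into C57BL/6 recipients and taken on day 7, during acute rejection. Cells of 4 to 7 hearts were pooled for every library, so a replicate here is a pool and not an animal. The labels gave no genotype, sex or strain for the naive hearts, listed 7 days as the time of all 7 samples, naive ones included, and did not say whether ILC2s in a graft were of donor or recipient origin. The comparison asked whether the transcript levels of these transcription factors differ between ILC2s of a rejecting graft and ILC2s of a resting heart.

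STAT proteins lie dormant in the cytoplasm until a cytokine binds its receptor and the receptor's Janus kinases phosphorylate them. They then pair, enter the nucleus and bind DNA at gamma-activated sites, or, for STAT2 joined to IRF9, at interferon-stimulated response elements. STAT6 carries the signal of interleukins 4 and 13, the STAT5 proteins that of interleukins 2 and 7 and thymic stromal lymphopoietin, STAT3 that of interleukins 6 and 10, STAT4 that of interleukin 12, and STAT2 that of type I interferon. Activation is a matter of phosphorylation, which RNA levels do not measure.

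The sequences that bear on how these genes were counted and read are shown first. Stat5a and Stat5b are neighbouring duplicates of an ancestral gene, and in the GENCODE M21 transcripts their coding sequences share an identical run of 324 bases, from codon 191 to codon 298 in either gene. The first 150 bases of it are printed here in capitals after 10 bases of Stat5a in lower case, to show what a read would have to tell apart.

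Stat5a coding sequence, start of the run: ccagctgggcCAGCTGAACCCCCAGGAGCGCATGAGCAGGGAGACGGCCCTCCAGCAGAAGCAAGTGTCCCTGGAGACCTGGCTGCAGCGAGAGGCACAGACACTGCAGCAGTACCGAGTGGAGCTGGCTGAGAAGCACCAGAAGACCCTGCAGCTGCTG

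A read that lies within the run matches both genes equally. The shared run is 13.6% of the 2391 coding bases of Stat5a and 13.7% of the 2358 coding bases of Stat5b. Of all stretches of 50 bases in the Stat5a transcript, 17.1% also occurred in Stat5b, and of those of 100 bases 7.56% did. The share of the Stat5b transcript found in Stat5a was 11.8% at 50 bases and 5.18% at 100 bases. No other pair of the 6 genes shared a stretch of 50 bases. The read length and the treatment of reads with several matches were not given in the sources used here, so the split of counts between Stat5a and Stat5b is uncertain to that extent.

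RefSeq start sites of GRCm38.p6 gave 9 upstream windows for the 6 genes, and the 250 bases before each start were searched on both strands. The gamma-activated site with a spacer of 3 (TTCNNNGAA) was in none of the 9 windows and in 7.02% of 32851 windows of all genes. The core of the interferon-stimulated response element (GAAANNGAAA) was in 2 of the 9 and in 2.98% of all windows. Those 2 windows lie before Stat2 and before an internal start of Stat4, and matches to the motifs are in capitals.

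Stat2, chr10:128270248-128270497, plus strand: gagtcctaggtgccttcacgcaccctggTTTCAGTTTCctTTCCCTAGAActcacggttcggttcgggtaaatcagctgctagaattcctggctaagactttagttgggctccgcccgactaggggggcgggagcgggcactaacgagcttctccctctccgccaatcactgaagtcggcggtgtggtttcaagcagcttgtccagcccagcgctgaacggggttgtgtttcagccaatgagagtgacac
Stat4 internal start, chr1:52007990-52008239, plus strand: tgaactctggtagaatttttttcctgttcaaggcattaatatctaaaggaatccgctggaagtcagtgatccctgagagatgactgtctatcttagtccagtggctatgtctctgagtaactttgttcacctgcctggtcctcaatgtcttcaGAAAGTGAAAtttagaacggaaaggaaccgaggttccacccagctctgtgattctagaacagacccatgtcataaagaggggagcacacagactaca

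In the Stat2 window the response element core starts at base -222 from the start site and reads on the minus strand. It is followed there by a gamma-activated site with a spacer of 4 (TTCNNNNGAA), which 5.85% of all windows held. The Stat4 match starts at base -97. These matches are descriptions of letters and not of bound sites.

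Total counts ran from 29107326 to 53044907 per library. Naive replicate 2 stood apart from the other 6 libraries. The summed level of 11 ILC2 markers was 1147 CPM (counts scaled to the library total) there and 10715 to 14665 CPM elsewhere. The sum of 10 kidney tubule markers was 10534 CPM there and 69.8 to 305 CPM elsewhere, and transcripts of mitochondrial genes made up 26.5% of its counts against 2.04% to 3.11%. Values are therefore given per library and also without naive replicate 2, and what part its composition has in them was not tested. In sorted pools, fewer cells of a type and less RNA per cell cannot be told apart. Markers of some other cells differed as well. The 9 T cell markers summed to 16.8 to 180 CPM in naive and 219 to 267 CPM in allograft libraries, with 3 to 5 of the 9 at 0 counts in naive and 0 to 4 in allograft libraries. The 8 B cell markers summed to 26.5 to 265 CPM in naive and 319.7 to 488 CPM in allograft libraries, with 2 to 7 of the 8 at 0 in naive and at most 1 in allograft libraries. The 7 erythroid markers went the other way, at 776 to 3004 CPM in naive and 468 to 597 CPM in allograft libraries, with 1 to 4 of the 7 at 0 in naive and 0 to 2 in allograft libraries. The other lists overlapped between the groups, cardiomyocyte and fibroblast markers included. Myeloid markers summed to 2.49, 327 and 476 CPM in naive and 173 to 267 CPM in allograft libraries. Mast cell markers had 326, 75.0 and 723 against 309 to 335 CPM, and endothelial markers 31.2, 546 and 8.26 against 34.0 to 48.0 CPM. The part of these cells in the levels of the STAT genes and of the other genes described below was not tested. The lists were written with earlier results of these data known.

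Stat4 was the most abundant of the 6 transcripts per length in 6 of 7 libraries, followed by Stat3. Levels between genes were compared in FPKM, fragments scaled to gene length and library size. In all 4 allografts the order was Stat4, Stat3, Stat6, Stat5b, Stat5a and Stat2. Naive replicate 3 had the same order. Naive replicate 1 differed in that Stat5b (12.0 FPKM) stood above Stat6 (9.12 FPKM). Naive replicate 2 had another order, with Stat6 highest at 5.16 FPKM, then Stat3 at 4.37, Stat2 at 2.66, Stat4 at 1.21, Stat5b at 1.199 and Stat5a at 0.988 FPKM. In the allografts the mean was 34.9 ± 5.09 FPKM (SD, n = 4) for Stat4, 26.5 ± 4.30 for Stat3, 16.97 ± 1.48 for Stat6, 10.4 ± 1.05 for Stat5b, 7.40 ± 2.11 for Stat5a and 3.64 ± 1.47 for Stat2. Neighbours in this order overlapped across allograft libraries for Stat4 and Stat3, and did not for Stat3 and Stat6 or for Stat6 and Stat5b. Stat5b and Stat5a did not overlap in range across allografts but came to 9.38 and 9.27 FPKM in replicate 2, and Stat5a and Stat2 overlapped.

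**Figure D1:**
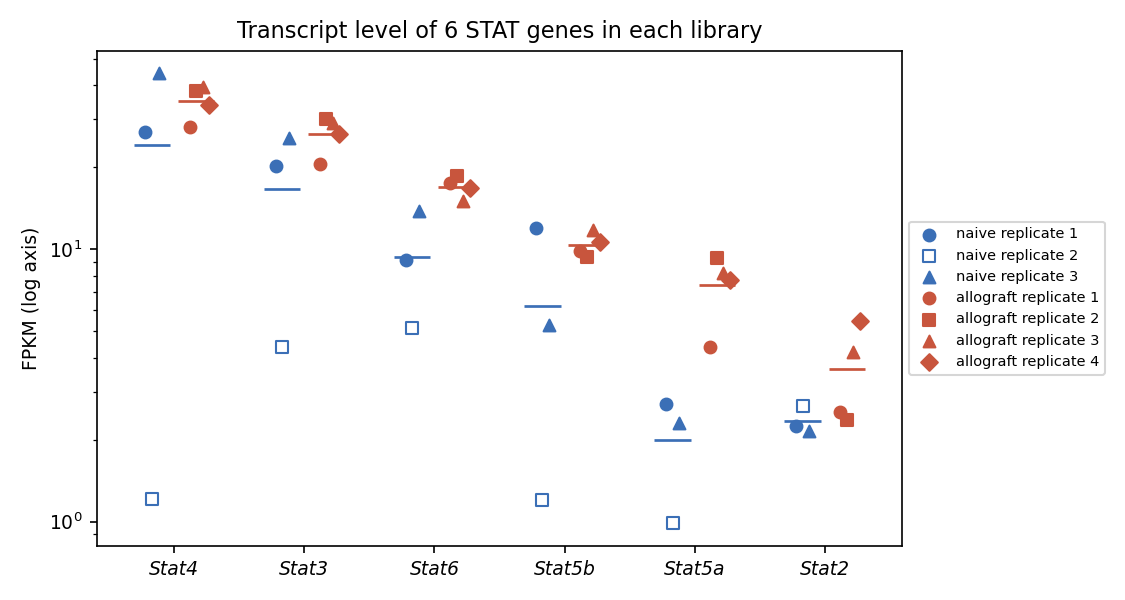
Level of each STAT gene in each library as FPKM on a log axis, with naive libraries in blue, allografts in red, 1 symbol per replicate number, naive replicate 2 as an open symbol and short lines at the group means. Stat5a and Stat6 are the genes for which the 4 allografts lie above all 3 naive libraries, and naive replicate 2 is lowest for every gene but Stat2.

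None of the 6 genes passed an adjusted p of 0.05 in edgeR's quasi-likelihood test over 17015 genes, in which 0.0353% of genes passed (0.0294% as higher in allografts). At an unadjusted p under 0.05 there was 1 of the 6, Stat5a, and 10.3% of all genes. Of all genes, 6.41% were higher and 3.86% lower in allografts at that p. DESeq2 called Stat5a alone among the 6, where it called 6.93% of the genes with an adjusted p (4.63% as higher). Leaving out naive replicates 1, 2 and 3 in turn, edgeR still called 0 of the 6, against 0.568%, 3.10% and 0.0372% of all genes. All 6 fitted changes were above 0, with a median log2 fold change of 0.67, while 49.4% of all genes were above 0 and their median was -0.014. With naive replicate 2 left out the median of the 6 was 0.39 and 5 were above 0, against 58.7% and a median of 0.23 over all genes. The allografts lay above every naive library for 2 of the 6 genes and for 12.5% of all genes. This held for 3 of the 6 and 21.6% of all genes when naive replicate 2 was left out, and for 2 of the 6 and 10.6% with TMM-scaled library sizes. Allografts below every naive library were found for 0 of the 6 in these 3 comparisons, and for 2.15%, 7.49% and 3.15% of all genes.

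Stat5a (ENSMUSG00000004043), on the plus strand of chromosome 11 at 100859351 to 100885169 of mm10, showed the widest difference between the groups of the 6. Its level was 2.70, 0.988 and 2.31 FPKM in naive replicates 1 to 3 and 4.39, 9.27, 8.19 and 7.74 FPKM in allograft replicates 1 to 4. Every allograft was above every naive library, and allograft replicate 1 lay nearest to them. Scaled to library totals, the naive mean was 16.1 ± 7.47 CPM (SD, n = 3), and the mean of the allografts was 61.0 ± 17.2 CPM (SD, n = 4). The log2 fold change was 1.79 (SE 0.42), with an unadjusted p of 0.00310 and an adjusted p of 0.161 in edgeR. It was 1.54 (SE 0.38, adjusted p = 0.0894 in edgeR) when naive replicate 2 was left out. Leaving out replicate 1 gave 1.98 and leaving out replicate 3 gave 1.88. With DESeq2 it was 1.62, with an adjusted p of 0.00119.

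Stat5b (ENSMUSG00000020919) lies 8626 bases from Stat5a on the opposite strand, at 100780731 to 100850724 of chromosome 11. It had 12.0, 1.199 and 5.30 FPKM in the naive and 9.85, 9.38, 11.8 and 10.6 FPKM in the allograft libraries. The 4 allografts were alike and lay within the naive range, since naive replicate 1 exceeded them all. The log2 fold change was 0.73 (SE 0.59, adjusted p = 0.779 in edgeR). It was 0.25 (SE 0.36) without naive replicate 2, and without naive replicate 1 it was 1.55 (adjusted p = 0.206 in edgeR). The difference between the changes of Stat5a and Stat5b was not tested.

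Stat6 (ENSMUSG00000002147), the factor downstream of the interleukin 4 receptor, lies on the plus strand of chromosome 10 at 127642986 to 127660957. Its level was 9.12, 5.16 and 13.8 FPKM in naive and 17.5, 18.6, 15.1 and 16.7 FPKM in allograft libraries. Here too every allograft was above every naive library, but naive replicate 3 and allograft replicate 3 were close. The log2 fold change was 0.75 (SE 0.33, unadjusted p = 0.0531, adjusted p = 0.499 in edgeR), and 0.54 (SE 0.28) without naive replicate 2. Of the 4402 exonic bases of Stat6, 40 overlap exonic bases of Nab2 on the other strand. Nab2 had 53, 115 and 0 counts in naive and 205 to 521 counts in allograft libraries, against at least 1127 for Stat6, and strand use in counting was not given in the sources used here.

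Stat3 (ENSMUSG00000004040) lies tail to tail with Stat5a on the minus strand of chromosome 11, at 100885098 to 100939540, and 72 exonic bases of the neighbours overlap. It had 20.2, 4.37 and 25.5 FPKM in naive and 20.5, 30.0, 29.1 and 26.5 FPKM in allograft libraries. The groups overlapped, as allograft replicate 1 lay between naive replicates 1 and 3. The log2 fold change of 0.61 (SE 0.49, adjusted p = 0.771 in edgeR) was 0.19 (SE 0.23) without naive replicate 2.

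Stat4 (ENSMUSG00000062939), which carries interleukin 12 signals in type 1 lymphocytes, lies on the plus strand of chromosome 1 at 51987148 to 52107189. Its level was 27.0, 1.21 and 44.3 FPKM in naive and 28.1, 38.2, 39.4 and 33.9 FPKM in allograft libraries. Naive replicates 1 and 3 lay on either side of all 4 allografts, and naive replicate 2 was far below. The log2 fold change was 0.51 (SE 0.85, adjusted p = 0.921 in edgeR) over all libraries and -0.062 (SE 0.28) without naive replicate 2, so its direction depended on that library. The predicted readthrough gene Gm28177 shares exon sequence with Stat4 on the same strand. It had 11 to 362 counts per library against 234 to 8418 for Stat4.

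Stat2 (ENSMUSG00000040033), the interferon factor, lies on the plus strand of chromosome 10 at 128270559 to 128292849. It had 2.24, 2.66 and 2.15 FPKM in naive and 2.52, 2.37, 4.20 and 5.46 FPKM in allograft libraries. Allograft replicates 3 and 4 were high, and the other 2 were close to the naive libraries. It was the only one of the 6 that was not lowest in naive replicate 2, where it had its highest naive level. The log2 fold change was 0.43 (SE 0.51, adjusted p = 0.866 in edgeR). It was 0.71 (SE 0.49) without naive replicate 2, and the groups then did not overlap.

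**Figure D2:**
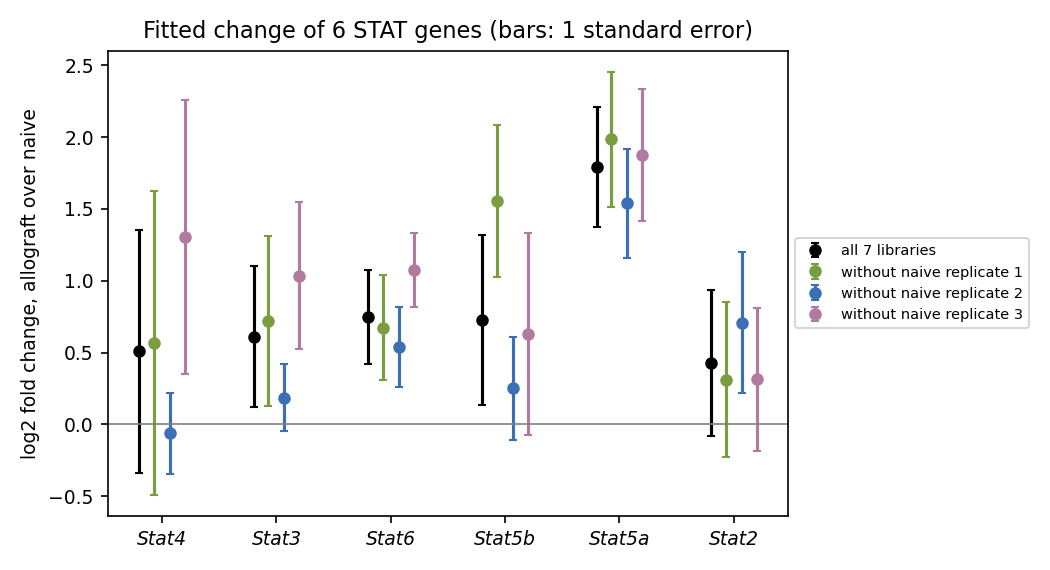
Log2 fold change of each STAT gene, allograft over naive, fitted with edgeR over all 7 libraries and without each naive library in turn, with bars of 1 standard error. Stat5a lies between 1.54 and 1.98 in these 4 fits, while Stat4 moves from -0.062 without naive replicate 2 to 1.31 without naive replicate 3.

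Ratios between members within a library do not depend on library scaling, so they were compared as well, without a test. Over 15 pairs, the ratio of FPKM separated the groups for 1, Stat2 to Stat5a, and without naive replicate 2 for 5. The share among pairs of all genes was not computed, so these counts cannot be set against a background. Stat2 over Stat5a was 0.828, 2.69 and 0.930 in naive and 0.574, 0.255, 0.513 and 0.706 in allograft libraries. Every allograft was thus below every naive library. Stat5a over Stat5b was 0.225, 0.824 and 0.436 in naive and 0.446, 0.989, 0.696 and 0.730 in allograft libraries. The allografts lay above naive replicates 1 and 3, but only allograft replicate 2 was above naive replicate 2, and allograft replicate 1 was nearly level with naive replicate 3. Stat4 over Stat6 was 2.96, 0.235 and 3.21 in naive and 1.61, 2.05, 2.61 and 2.03 in allograft libraries, so the allografts lay below naive replicates 1 and 3 and above replicate 2. Stat3 over Stat4 was 0.729 to 0.787 in the allografts, the narrowest range of these 4 ratios there. It was 0.747 and 0.577 in naive replicates 1 and 3, and 3.61 in naive replicate 2.

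**Figure D3:**
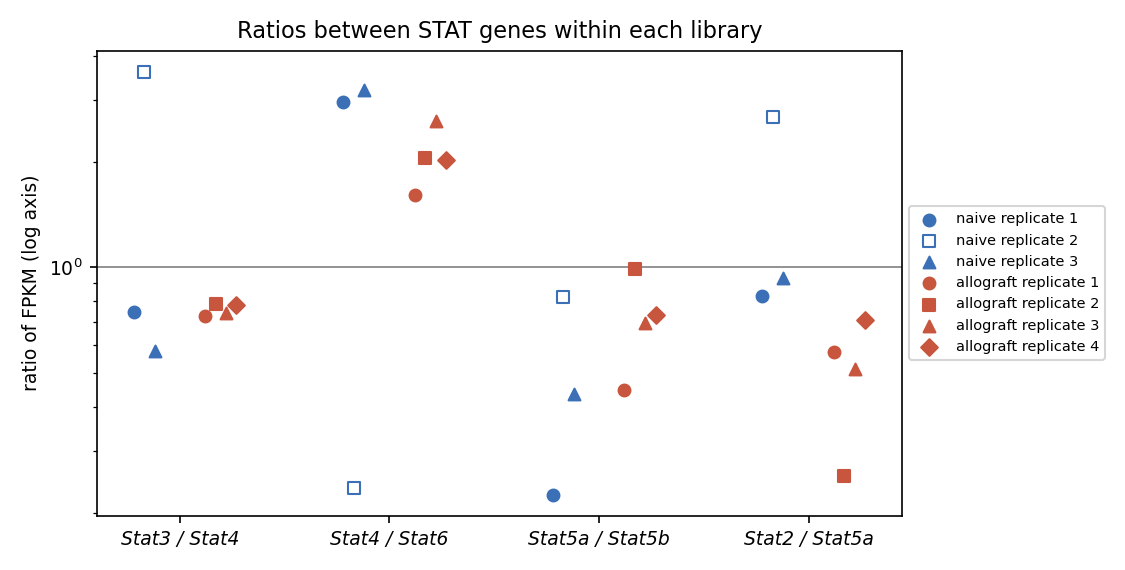
Ratio of FPKM between pairs of STAT genes within each library on a log axis, with naive libraries in blue, allografts in red and naive replicate 2 as an open symbol. For Stat2 over Stat5a the 4 allografts (0.255 to 0.706) lie below all 3 naive libraries (0.828 to 2.69), and for Stat3 over Stat4 the allografts span 0.729 to 0.787.

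Genes with the most similar profile were taken by Pearson's r of log2 CPM over the 7 libraries, among 4696 to 4697 genes with an average log2 CPM of at least 5. Naive replicate 2 is the low point of all members but Stat2, so r over the other 6 libraries is given beside each value, as a description. Stat5a was most like Nebl (0.996, and 0.995 without that library) and Cdc27 (0.990 and 0.988). Nebl had 34.0, 9.03 and 26.8 CPM in naive and 59.9, 123, 101 and 89.0 CPM in allograft libraries, the same ranking of the 7 libraries as Stat5a. Stat6 was most like Ptpn18 (0.994 and 0.983) and Nfkb2 (0.993 and 0.980), and Stat5b like Elavl1 (0.997 and 0.994) and Syf2 (0.996 and 0.981). Stat3 was most like Casp4 (0.998 and 0.964) and Srpk1 (0.997 and 0.948), and Stat4 like Rab8b (0.999 and 0.952) and Taf1d (0.997 and 0.835). For Stat2 the highest values were lower, with Glmp at 0.859 (0.868 without naive replicate 2) and Cnppd1 at 0.814 (0.915). More than 100 genes exceeded an r of 0.9 with each of the other 5 members (130 for Stat5a to 932 for Stat4), and 0 did with Stat2.

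Upstream of the STAT proteins, none of the 4 Janus kinases passed the test. All 4 fitted changes were above 0, beside 49.4% of all genes. Jak1, shared by interferon and gamma chain receptors, had 316, 42.8 and 303 CPM in naive and 288, 303, 333 and 350 CPM in allograft libraries. Jak3, the kinase of the common gamma chain, had 116, 9.72 and 112 CPM in naive and 102 to 125 CPM in allograft libraries. Tyk2 had 16.7, 7.30 and 92.7 CPM in naive and 48.1 to 55.04 CPM in allograft libraries. The groups overlapped for all 4, including Jak2 (log2 fold change 0.60) and Tyk2 (0.30), and edgeR's adjusted p was 0.862 to 0.951. With naive replicate 2 left out their median log2 fold change went from 0.45 to -0.043.

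None of the tested receptor subunits passed edgeR's threshold over all 7 libraries. Il13ra1 passed without naive replicate 2 (adjusted p = 0.0443 in edgeR), where 3.1% of all genes did. Il10ra, a chain of the interleukin 10 receptor, passed without naive replicate 3, where 0.0372% of all genes did. Its log2 fold change was then 3.48 (adjusted p = 0.0479 in edgeR). Il10ra had 9.95, 7.47 and 389 CPM in naive and 105 to 135 CPM in allograft libraries, so naive replicate 3 was above all the others. At an unadjusted p under 0.05 there were Il12rb2 (higher) and Il11ra1 (lower), and DESeq2 called Il12rb2. Over all genes, 6.41% were higher and 3.86% lower at that p, and DESeq2 called 6.93%. Receptor genes signalling to STAT5 had a median log2 fold change of 0.20 over 11 genes, and 0.0080 without naive replicate 2. The interleukin 7 receptor gene Il7r had 326, 20.1 and 775 CPM in naive and 460 to 771 CPM in allograft libraries. Il2rb had 132, 0.989 and 208 CPM in naive and 191 to 241 CPM in allograft libraries, and Il3ra 1.60 to 8.19 and 6.76 to 9.52 CPM. For STAT6, the common gamma chain gene Il2rg had 1612, 87.6 and 1678 CPM in naive and 1348 to 2094 CPM in allograft libraries. Il13ra1, which pairs with the interleukin 4 receptor alpha chain, had 0, 38.2 and 0 CPM in naive and 1.25 to 4.23 CPM in allograft libraries, so that its direction hung on naive replicate 2.

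For STAT4, neither interleukin 12 receptor chain passed in edgeR, and the difference between their changes was not tested. Il12rb1 had 57.6, 1.10 and 30.1 CPM in naive and 23.4 to 38.4 CPM in allograft libraries. Il12rb2 had 0 counts in all naive libraries and 0.250, 1.82, 3.74 and 1.86 CPM in allografts. That is at least 30.1-fold above a floor of 3 counts per naive library (edgeR adjusted p = 0.169). For STAT3, 9 of 11 receptor genes were tested. Il27ra had 73.8, 2.22 and 46.1 CPM in naive and 91.3 to 133 CPM in allograft libraries, Il11ra1 had 5.58, 104 and 26.7 against 5.13 to 12.1 CPM, and Osmr 0, 3.74 and 16.6 against 0 to 0.790 CPM. For STAT2, the interferon receptor chain gene Ifnar1 had 126, 16.8 and 191 CPM in naive and 165 to 213 CPM in allograft libraries, and Il10rb 24.4 to 97.4 and 35.4 to 55.1 CPM.

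Of 22 cytokine genes whose products act through these factors, 13 were tested, 0 passed in edgeR and 1 had an unadjusted p under 0.05 (1 passed with DESeq2, Il12b in both cases), beside 6.41% of all genes higher at that p and 6.93% called by DESeq2. Il12b, a subunit of interleukin 12, had 0 counts in the naive libraries and 21.3, 17.4, 14.6 and 10.7 CPM in allografts. That is at least 251-fold above a floor of 3 counts per naive library (edgeR adjusted p = 0.144). Left-out fits of edgeR gave Il12b an adjusted p of 0.0413, 0.0252 and 0.0616 without naive replicates 1, 2 and 3. Its partner Il12a had at most 0.0943 CPM in naive and 0 to 1.42 CPM in allograft libraries. Lif had 57.5, 0.374 and 9.63 CPM in naive and 73.5 to 106 CPM in allograft libraries. Il10 had 13.2, 0 and 0 CPM in naive and 14.6 to 22.7 CPM in allograft libraries. It passed without naive replicate 1 (adjusted p = 0.0328 in edgeR), where 0.568% of all genes did. The allografts lay above all naive libraries for 6 of the 13, against 12.5% of all genes.

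Of 16 inhibitors, 0 passed in edgeR, with 1 higher and 1 lower at an unadjusted p under 0.05 and 1 called by DESeq2. Over all genes these shares were 6.41%, 3.86% and 6.93%. Socs3, a feedback inhibitor and itself a target of STAT3, had 34.3, 40.4 and 52.9 CPM in naive and 25.2, 26.1, 20.1 and 18.3 CPM in allograft libraries. All 4 allografts lay below all 3 naive libraries, which was so for 2.15% of all genes. Its log2 fold change was -1.15 (SE 0.36, adjusted p = 0.332 in edgeR, 0.0118 with DESeq2). Ptpn6, which encodes the phosphatase SHP-1, had 20.7, 20.99 and 5.16 CPM in naive and 45.0 to 67.5 CPM in allograft libraries (edgeR log2 fold change 1.58, adjusted p = 0.388). Socs1 had 81.4, 9.47 and 302 CPM in naive and 40.7 to 53.6 CPM in allograft libraries. Among nuclear partners, Irf9, which joins STAT2, had 21.02, 7.65 and 3.65 CPM in naive and 24.0 to 34.1 CPM in allograft libraries (edgeR adjusted p = 0.532). The coactivator gene Ep300 had 11.1 to 20.002 CPM in naive and 21.2 to 37.3 CPM in allograft libraries.

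Genes known as targets were grouped by factor. Of 8 tested STAT6 targets, 1 passed in edgeR, Retnla, with 0 counts in naive and 104 to 224 CPM in allograft libraries. That is at least 2538-fold above a floor of 3 counts per naive library (edgeR adjusted p = 0.0278). It did not pass when any 1 allograft library was left out (adjusted p 0.180 to 0.218 in edgeR). At an unadjusted p under 0.05 there were 3 STAT6 targets, all higher, and DESeq2 called 2, Retnla and Ccl17. Over all genes, 6.41% were higher at that p and DESeq2 called 6.93%. The same 3 targets, Retnla and the chemokine genes Ccl17 and Ccl22, did not overlap between the groups. Allografts lay above every naive library for 12.5% of all genes. Ccl17 had 0, 6.11 and 10.2 CPM in naive and 210 to 282 CPM in allograft libraries, and edgeR's adjusted p was 0.341, or 0.0207 without naive replicate 1. Ccl22 had 0, 1.43 and 0 CPM in naive and 36.3 to 69.4 CPM in allograft libraries, with an adjusted p of 0.341 in edgeR, or 0.0161 without naive replicate 2. The median log2 fold change of the STAT6 targets was 0.52, and -0.068 without naive replicate 2. Of the 9 STAT5 targets 0 passed in edgeR, with a median of 0.24 (-0.21 without naive replicate 2). At an unadjusted p under 0.05 there was 1 gene, beside 6.41% of all genes higher at that p. That gene, the kinase gene Pim2, had 22.2, 7.54 and 19.6 CPM in naive and 54.1, 44.0, 49.7 and 39.2 CPM in allograft libraries (edgeR log2 fold change 1.38, SE 0.39, adjusted p = 0.258, 0.00219 with DESeq2). Osm had 44.3, 0 and 4.79 CPM in naive and 46.3 to 53.9 CPM in allograft libraries, and Bcl2 had 145, 18.3 and 348 against 159 to 313 CPM.

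All 7 STAT4 targets had a fitted change above 0, beside 49.4% of all genes. Their median was 1.62, or 1.46 without naive replicate 2, and 0 passed in edgeR over all libraries. At an unadjusted p under 0.05 there were 2, and DESeq2 called 2. Over all genes, 6.41% were higher at that p and DESeq2 called 6.93%. Tbx21, which encodes T-bet, had 0 counts in naive and 7.95, 4.32, 1.74 and 3.13 CPM in allografts. That is at least 67.2-fold above a floor of 3 counts per naive library (edgeR adjusted p = 0.144). With naive replicate 2 left out, Tbx21 and Ifng passed in edgeR (adjusted p = 0.0446 and 0.0234), where 3.10% of all genes did. Il18r1 had 5.96 to 8.37 CPM in naive and 11.9 to 24.3 CPM in allograft libraries. Of the 7 targets, 4 did not overlap between the groups, beside 12.5% of all genes. With TMM-scaled library sizes 3 did not overlap, beside 10.6%, as Il18r1 then overlapped.

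The 13 STAT2 targets, interferon-stimulated genes, had a median of 0.55 with 9 above 0, beside 49.4% of all genes. In edgeR 0 passed the threshold, and DESeq2 called 0, beside 0.0353% and 6.93% of all genes. At an unadjusted p under 0.05 there was 1, Ifit3, which was lower, beside 3.86% of all genes lower at that p. Ifit3 had 10.7, 102 and 0 CPM in naive and 0.783 to 2.20 CPM in allograft libraries. Mx1 had at most 0.615 CPM in naive and 1.35 to 3.93 CPM in allograft libraries, and Xaf1 18.5 to 37.8 and 41.3 to 54.3 CPM. In the fit without naive replicate 2, 12 of the 13 were above 0 and Mx1 passed in edgeR (adjusted p = 0.0466). Of all genes, 58.7% were above 0 and 3.1% passed in that fit. The median of the list was then 4.28, which includes fitted values of genes at 0 counts in both remaining naive libraries, such as Mx1, and so is no bound. In CPM, 8 were higher in all allografts than in naive replicates 1 and 3, against 21.6% of all genes. The 7 STAT3 targets had a median of 0.014 (-0.55 without naive replicate 2), and 0 were past edgeR's threshold. Socs3, which was lower, was the 1 at an unadjusted p under 0.05 and the 1 called by DESeq2. Over all genes, 3.86% were lower at that p and DESeq2 called 6.93%. Among the other STAT3 targets was Bcl3, of the inhibitor of NF-kappaB family. Its level was 39.3, 10.6 and 16.5 CPM in naive and 32.7 to 55.4 CPM in allograft libraries. Batf, an AP-1 family factor, had 134, 1.71 and 129 CPM in naive and 195 to 263 CPM in allograft libraries.

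**Figure D4:**
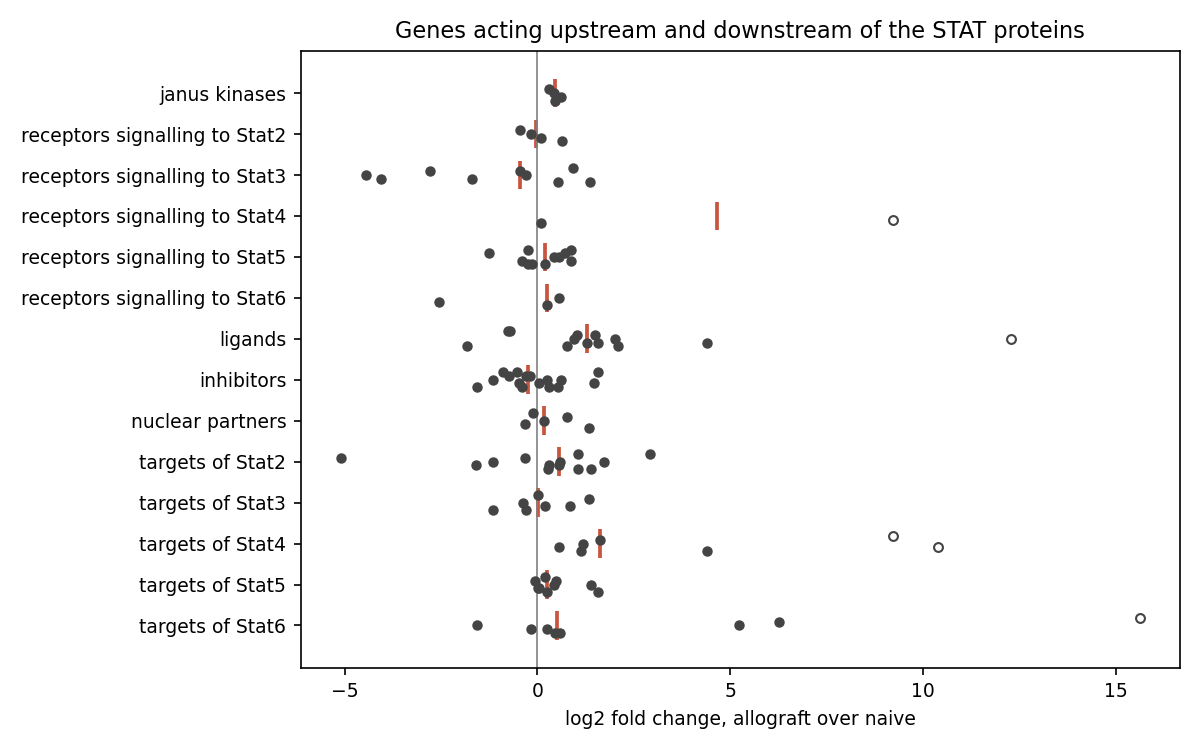
Log2 fold change, allograft over naive, of each tested gene of 14 lists around the STAT proteins from the edgeR fit over 7 libraries, with 1 point per gene and a red line at the median of each list. Open points are genes with 0 counts in every naive library, whose fitted value is no bound, and the STAT4 targets have a median of 1.62 while the Janus kinases lie between 0.30 and 0.60.

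Over the 100 tested pathway genes together, edgeR called 1 (Retnla), with 8 higher and 3 lower at an unadjusted p under 0.05, beside 6.41% and 3.86% of all genes. Their median log2 fold change was 0.43, or 0.39 without naive replicate 2, beside -0.014 and 0.23 over all genes. The groups did not overlap for 23 in the higher and 1 in the lower direction, against 12.5% and 2.15% of all genes. EdgeR called 7 pathway genes when naive replicate 2 was left out, 4 when replicate 1 was and 2 when replicate 3 was, beside 3.10%, 0.568% and 0.0372% of all genes in the same fits.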

How the data were processed

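The authors deposited gene counts and, separately, FPKM for the same 55335 Ensembl identifiers, with 7 library columns each and 0 columns left over. Per the submitters' processing notes, mm10, STAR 2.5.3a, StringTie 1.3.1c, FastQC 0.11.5 and DESeq2 1.16.1 were used, with no role named. The counting tool, annotation and use of strand were not given in the sources used here. FPKM followed CPM after a factor for each gene and each library was removed (SD of the log2 residual 0.00252, 7340 genes with 100 counts or more throughout). Gene positions come from GENCODE M21 on GRCm38, the assembly of mm10, and start sites from RefSeq on GRCm38.p6.

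Counts were tested with edgeR 4.0.16 (R 4.3.3), quasi-likelihood fit, TMM, filterByExpr (17015 genes kept) and Benjamini-Hochberg adjustment over all of them at 0.05, without a covariate. Standard errors follow from the F value. Alternatives were DESeq2 1.42.0, 2 other scalings, mitochondrial genes left out, no filter, a mean of at least 50 counts, limma 3.58.1 on log2(FPKM + 0.1) and log2(FPKM + 1), a replicate block, and each library left out. The code of the fits was tested on simulated counts with known changes, and the other steps were not tested in this way. The p-values measure the spread between pooled libraries, and reads carry no molecular identifiers.

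The genes and lists were chosen with earlier results of these data known. Named were the 6 members, the Janus kinases, and of each list the genes past the threshold or otherwise the 3 with the smallest p (2 for lists with fewer than 6 tested). The most similar genes were the 2 with the highest r for each member. Ifng, Il10, Il10ra, Ccl17 and Ccl22 were named after their values were seen. A floor of 3 counts per library was used for genes at 0. It covers counting error only, and not the lower number of genes detected in naive replicates 1 and 3.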

Additional observations from a re-analysis of the deposited data

Results flagged for a closer look

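Among 66 values examined over the 4 allografts, 2 had a library far from the other 3, where chance gives about 3.3. The B cell marker sum was 319.7 CPM for allograft replicate 4, while the other 3 had 471 to 488 CPM. The myeloid marker sum was 267 CPM for allograft replicate 1, while the other 3 had 173 to 188 CPM. No level of the 6 STAT genes and no ratio between them was set apart in this way.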

How the results depend on the processing

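Over 16 alternatives, 0 of the 6 STAT genes passed the adjusted threshold in 15, and 1 (Stat5a) passed with DESeq2. The fitted change was above 0 in all 16 for each member but Stat4, which was -0.062 without naive replicate 2, while leaving out replicate 3 gave 1.31 (range -0.062 to 1.57 over the 16, 1.49 to 1.98 for Stat5a, 0.54 to 1.08 for Stat6). The scaling moved the median of all genes from -0.014 to -0.20 with DESeq2 size factors and to 0.17 with library totals, and all 6 members stayed above 0 under either. The number of all genes past the threshold, 6, was 1249 with DESeq2, 201 and 76 with log2 FPKM plus 0.1 and plus 1, and 0 to 560 when a library was left out. Leaving out naive replicate 1 gave 107, replicate 2 gave 560, replicate 3 gave 7, and any 1 allograft library gave 0 (848 to 1074 at an unadjusted p under 0.05). The number of pathway genes, 1, was 7 with DESeq2, 5 and 5 on log2 FPKM, and 0 to 7 when a library was left out. Of 100 tested pathway genes, 24 did not overlap between the groups, and 39 without naive replicate 2, an alternative added after the data were seen. Over all genes, 12.5% were higher and 2.15% lower without overlap. Those shares were 21.6% and 7.49% without naive replicate 2. With a replicate block 0 of all genes, 0 pathway genes and 0 members passed (252 of all genes at an unadjusted p under 0.05). Deviations of same-numbered libraries correlated at 0.017, -0.018 and 0.037, and those of differently numbered ones at -0.091 to 0.080. This cannot show whether the numbers pair the libraries, since naive deviations were taken from a mean that includes naive replicate 2.

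Among the 41 named genes, 13 of 648 alternative values changed sign, none of them for a gene past the threshold over all libraries. With libraries left out in turn, Jak1 ran from -0.0060 to 0.76, Jak3 from -0.080 to 0.78, Tyk2 from -0.17 to 1.90 (-0.080 without naive replicate 1), Il12rb1 from -0.50 to 0.95 (-0.018 without allograft replicate 4), Il13ra1 from -3.11 to 10.02 and Il10rb from -0.83 to 0.10 (without naive replicate 3). Of these, Jak1, Jak3, Tyk2 and Il12rb1 were lowest, and Il13ra1 highest, without naive replicate 2, where Bcl2 was at -0.11. Il12rb1 was -0.015 with DESeq2, and Il13ra1 was 0.79 with log2 FPKM plus 0.1 and 6.35 with the replicate block. The cause was not tested. Precision is set by 3 naive libraries that differ from one another, and at 29107326 counts, the smallest library, 0 counts allow up to 0.103 CPM.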

Other observations

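Relative to Gata3, a transcription factor gene among the ILC2 markers, Stat4 lay between 0.148 and 0.248 in all 7 libraries. Its CPM over that of Gata3 was 0.182, 0.148 and 0.199 in naive and 0.167, 0.221, 0.248 and 0.172 in allograft libraries, so the groups overlapped and naive replicate 2 was only slightly below the rest. Stat2 over Gata3 was 0.0231, 0.493 and 0.0148 in naive and 0.0211 to 0.0427 in allograft libraries. Stat6 over Gata3 was 0.0699, 0.711 and 0.0706 in naive and 0.0967 to 0.123 in allograft libraries, and Stat5a over Gata3 was 0.0337, 0.221 and 0.0192 in naive and 0.0483 to 0.0995 in allograft libraries. For Stat5a and Stat6 the 4 allografts lay above naive replicates 1 and 3 and below naive replicate 2. Relative to Ptprc, the gene of CD45, this did not hold for Stat6, and for Stat5a it held only narrowly. Stat6 over Ptprc was 0.191, 2.11 and 0.121 in naive and 0.227, 0.128, 0.151 and 0.192 in allograft libraries, so 2 allografts lay below naive replicate 1. Stat5a over Ptprc was 0.0921, 0.659 and 0.0329 in naive and 0.0926, 0.103, 0.134 and 0.144 in allograft libraries. Naive replicate 1 and allograft replicate 1 were thus nearly level. Stat4 over Ptprc was 0.498, 0.439 and 0.342 in naive and 0.320, 0.230, 0.347 and 0.342 in allograft libraries. Naive replicates 1 and 2 thus lay above all 4 allografts, so how alike Stat4 was between libraries depended on the marker. Why the ratios of Stat2, Stat5a and Stat6 differ in naive replicate 2 was not tested.

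Upstream of the RefSeq starts, Stat5a at base 100860484 and an internal start of Stat5b at base 100822570 of chromosome 11 share the run AGGAAATCGCTGCTCT, 16 bases long. It was the longest run shared by any pair of the 9 windows of the 6 genes.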
